A study of Mus musculus with 42 samples.

Results

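The 10 genes described here encode heavy chains of class I molecules of the major histocompatibility complex (MHC) and lie on mouse chromosome 17 around Tnf, the gene whose transcript was altered in the mutant mice. They are H2-K1, H2-D1, H2-Q4, H2-Q6, H2-Q7, H2-T24, H2-T23, H2-T22, H2-T10 and H2-T3. They were taken by symbol and position, without use of their values, from the 46603 genes of the count table. All 10 were found and all 10 passed the low-count filter in every comparison, although in the nodes and the synovium H2-T3 passed it only through its TNFdARE libraries.

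The cells were regulatory (Treg) and conventional (Tconv) CD4 T cells of TNFdARE mice, which lack an AU-rich element that shortens the life of the Tnf transcript, and of wild-type (WT) littermates. Mice of both genotypes carried DEREG, a transgene in which Foxp3 regulatory sequence drives a green fluorescent reporter, and the sort into Treg and Tconv was made on that reporter. Sites were the ileum with its mesenteric node and the synovium of the ankle with its draining nodes (inguinal plus popliteal, called joint nodes here), sampled in 3 independent experiments named A, B and C. Bulk sequencing covered 42 libraries, 3 in each of 11 groups and fewer in the other 5 of the 16. Only experiments B and C gave TNFdARE mesenteric Treg and Tconv. TNFdARE synovial Tconv and WT synovial Treg came from A and B, and a single library from A stood for WT synovial Tconv. The age of the mice, their strain, the number of animals behind a library and the extent of backcrossing of the Tnf allele are not given in the sources used here, so p-values measure the spread between libraries. The altered Tnf allele and any sequence difference linked to it on chromosome 17 would be inherited together, so the 2 cannot be told apart in these groups.

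Class I heavy chains pair with beta-2 microglobulin, encoded by B2m on another chromosome. The classical molecules H2-K and H2-D show peptides from inside the cell to CD8 T cells, after TAP1 and TAP2 have carried those peptides into the endoplasmic reticulum and tapasin (Tapbp) has helped to load them. The nonclassical genes of the Q and T regions have narrower roles: H2-Q6 and H2-Q7 encode forms of Qa-2, H2-T23 encodes Qa-1, which shows a leader peptide of other class I molecules to the NKG2A receptor, H2-T22 and H2-T10 encode ligands of some gamma delta T cells, and H2-T3 encodes thymus leukaemia antigen, a binding partner of CD8 alpha homodimers known from gut epithelium. Class I genes are textbook targets of interferons and of NF-kB, the factor through which TNF acts on many genes.

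Each library held between 18261064 and 30301202 counts, and the 10 genes took between 1.09% and 1.80% of them. Levels are given as CPM, the counts of a gene scaled to a common library size over all 42 libraries, and the counting intervals below hold no spread between libraries. Input was either 100 pg or 2 ng of RNA, which of them for each library is not given. The ileal Treg libraries of experiments A and B carried epithelial markers (8 genes, none of them at 0 throughout an ileal group) at a summed 738 and 444 CPM in TNFdARE and 485 and 266 CPM in WT, whereas experiment C had 24.6 CPM in TNFdARE and 42.6 CPM in WT. The single WT synovial Tconv library carried markers of CD8 and NK cells at a summed 974 CPM, so each synovial Tconv comparison rests on a library that stands apart. In the joint nodes the Tconv libraries TNFdARE B and WT C had 29599 and 31454 genes detected, against 17835 to 18172 in the other Tconv libraries there and at most 21065 in any other library. Leaving them out one at a time, without TNFdARE B or without WT C, gave 4 or 3 members called for genotype in joint-node Tconv (4 with all libraries), and 5 or 5 for Treg against Tconv there (6 with all libraries). In bulk RNA, fewer cells of a type and less RNA per cell cannot be told apart.

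In the GRCm38 build, Tnf lies at chr17:35199381-35202007 on the minus strand. H2-D1 (chr17:35262730-35267499, plus strand) starts 60.7 kb from the Tnf start. H2-Q4 (chr17:35379617-35385290), H2-Q6 (chr17:35424850-35430055) and H2-Q7 (chr17:35439155-35443773), all on the plus strand, start 177.6, 222.8 and 237.1 kb away. The T region follows on the minus strand: H2-T24 (chr17:36005695-36020560), H2-T23 (chr17:36029773-36032855), H2-T22 (chr17:36037128-36042747), H2-T10 (chr17:36115876-36121465) and H2-T3 (chr17:36185572-36190287) start between 0.819 and 0.988 Mb from Tnf. H2-K1 (chr17:33996017-34000347, minus strand) lies on the other side at 1.2 Mb and is the only one of the 10 beyond 1 Mb. The annotation gives H2-T10 as a polymorphic pseudogene, a class for genes that are broken in the reference strain and intact in others, and the other 9 as protein coding.

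RefSeq start-site windows of 300 bases (250 before and 50 after the start, build GRCm38.p6) were at hand for 8 of the 10 genes. Of these, 4 are shown because they differ in the elements they hold and because their genes behaved differently below: H2-K1, a classical gene, H2-T22 and H2-T23, which were lower in TNFdARE Treg of the joint nodes, and H2-T3, which was near 0 in WT. Capitals mark a kB core (GGGATTNCC) and the core of an interferon-stimulated response element (TTTCACTT), each searched on both strands. The letters of both were chosen after these sequences had been read.
H2-K1, chr17:34000298-34000597, minus strand: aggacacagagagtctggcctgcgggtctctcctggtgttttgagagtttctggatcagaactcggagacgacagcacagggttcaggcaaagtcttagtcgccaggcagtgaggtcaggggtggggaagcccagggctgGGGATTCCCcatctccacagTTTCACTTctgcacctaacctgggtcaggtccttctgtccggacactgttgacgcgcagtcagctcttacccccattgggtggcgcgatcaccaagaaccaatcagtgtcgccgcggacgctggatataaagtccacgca
H2-T22, chr17:36042693-36042992, minus strand: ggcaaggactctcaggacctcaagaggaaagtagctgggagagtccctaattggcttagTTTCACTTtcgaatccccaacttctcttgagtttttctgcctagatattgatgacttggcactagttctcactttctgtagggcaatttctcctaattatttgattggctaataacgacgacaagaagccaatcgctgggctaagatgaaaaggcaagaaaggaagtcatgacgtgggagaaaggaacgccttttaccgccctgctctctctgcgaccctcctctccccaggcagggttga
H2-T23, chr17:36032652-36032951, minus strand: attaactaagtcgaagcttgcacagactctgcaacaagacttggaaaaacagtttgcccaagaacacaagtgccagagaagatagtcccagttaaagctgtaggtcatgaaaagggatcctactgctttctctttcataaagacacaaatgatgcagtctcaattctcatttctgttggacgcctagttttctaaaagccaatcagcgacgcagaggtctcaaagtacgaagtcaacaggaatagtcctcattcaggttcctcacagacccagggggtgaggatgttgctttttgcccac
H2-T3, chr17:36190102-36190401, minus strand: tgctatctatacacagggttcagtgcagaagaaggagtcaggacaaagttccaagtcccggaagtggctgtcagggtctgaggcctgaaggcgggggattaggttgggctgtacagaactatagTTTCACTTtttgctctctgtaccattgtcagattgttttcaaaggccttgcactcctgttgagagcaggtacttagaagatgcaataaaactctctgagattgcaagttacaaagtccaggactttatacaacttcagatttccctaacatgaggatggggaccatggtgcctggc

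The kB core stood in 5 of the 8 windows, those of H2-K1, H2-D1, H2-Q4, H2-Q6 and H2-Q7, against 0.984% of all windows (266 of 27025). The interferon core stood in 7 of the 8, all but H2-T23, against 1.67% of all windows (451 of 27025). In H2-K1 the cores began 110 and 90 bases before the start, and in H2-D1 170 and 150 bases before it. In H2-T22 and H2-T3, which held the interferon core alone, it began 191 and 126 bases before the start. Since the letters were chosen after these windows had been read, the contrast with all windows is no test. A match of letters is a description and not a binding site.

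Per kilobase of exon, the 2 classical genes stood far above the rest. H2-D1 had a median of 1971 CPM per kb over the 42 libraries (1592 to 2945) and H2-K1 1725 CPM per kb (1364 to 2674), and the ranges of these neighbours overlapped. B2m, their shared light chain, stood at 5211 CPM per kb. H2-Q6 and H2-Q7 followed at 373.9 and 230.3 CPM per kb and H2-T23 at 156.7 CPM per kb. H2-T22 stood at 43.7, H2-T10 at 19.3, H2-T24 at 13.4 and H2-Q4 at 12.7 CPM per kb, the last 3 with overlapping ranges, and H2-T3 was lowest at 0.620 CPM per kb with 10 libraries at 0. The median of Tnf itself was 35.3 CPM per kb. The deposited FPKM values could not be used for such levels, since over 42 libraries H2-K1 and H2-D1 each had 2 distinct FPKM values and H2-Q7 had 14.

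**Figure D1:**
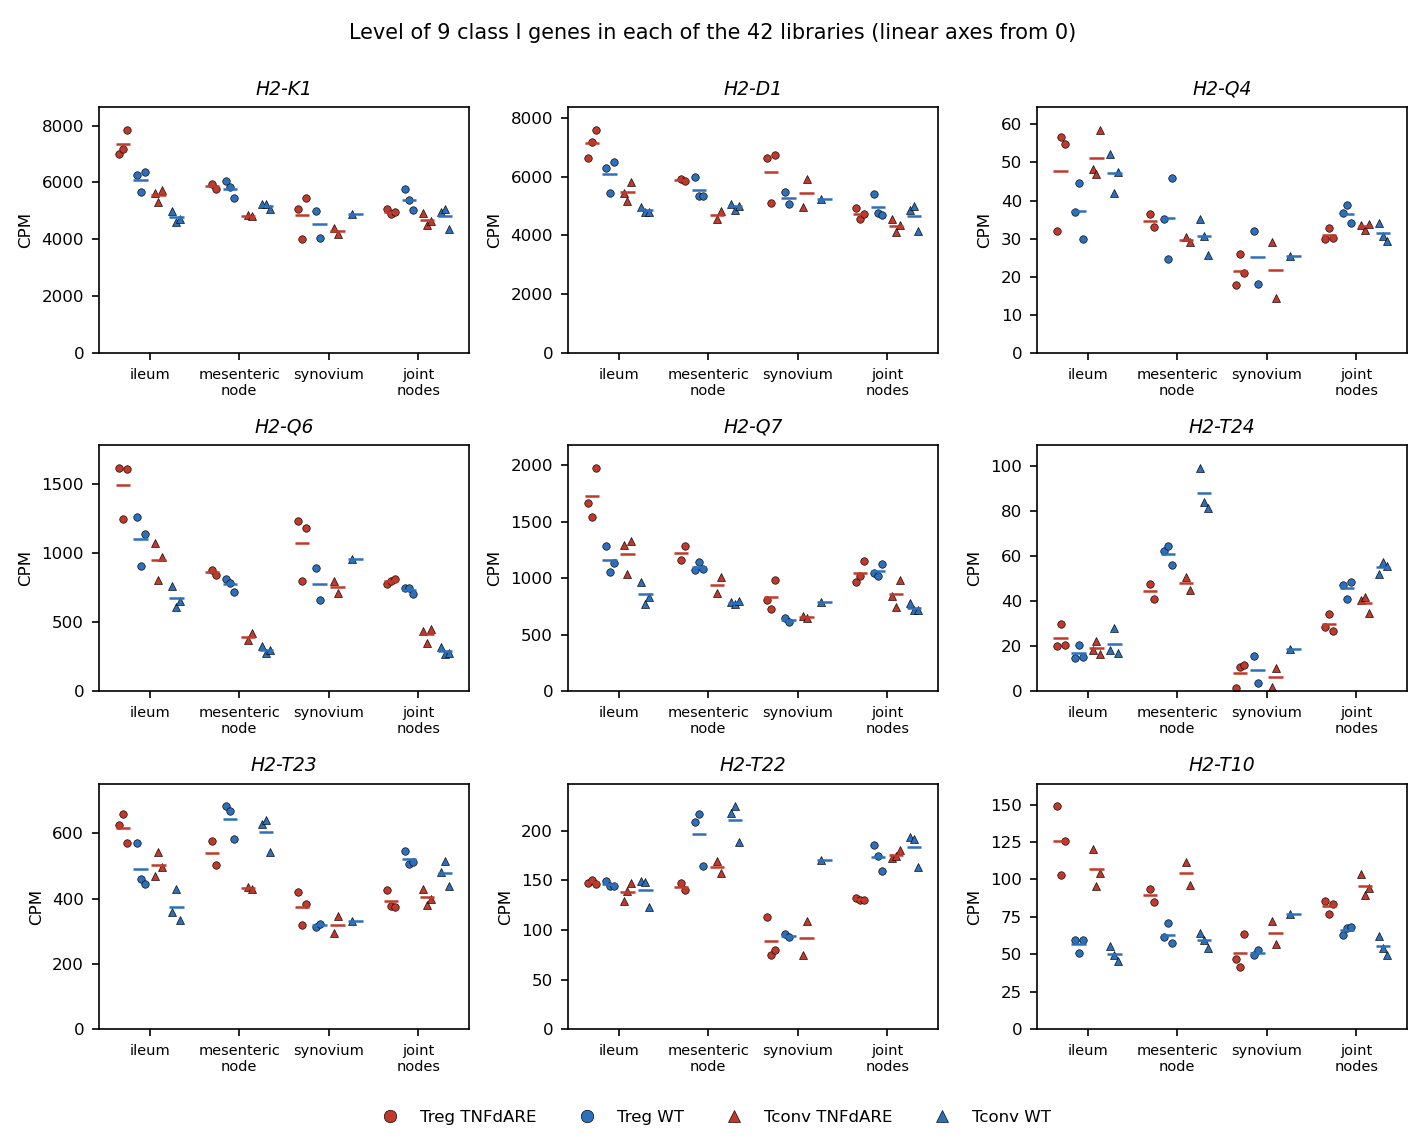
Levels in CPM (y axes, linear from 0) of 9 of the class I genes in each of the 42 libraries, by site (x axes), with Treg as circles, Tconv as triangles, TNFdARE in red, WT in blue and group means as bars. H2-T10 sits higher in TNFdARE in the ileum and nodes (77.0 to 149 CPM) than in WT there (45.8 to 70.7 CPM), and H2-T24 is highest in WT mesenteric Tconv (81.1 to 99 CPM).

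The level of a gene depended on site and cell type as well as on genotype. H2-K1 (7346 ± 450 CPM), H2-D1 (7134 ± 480), H2-Q6 (1493 ± 213), H2-Q7 (1726 ± 225), H2-T10 (126 ± 22.9) and H2-T3 (20.5 ± 2.09) had their highest group mean in TNFdARE ileal Treg (SD, n = 3). H2-T24 and H2-T22 were highest in WT mesenteric Tconv (88.0 ± 9.65 and 211 ± 19.2 CPM), H2-T23 in WT mesenteric Treg (645 ± 53.9 CPM) and H2-Q4 in TNFdARE ileal Tconv (51.2 ± 6.41 CPM). The highest group mean was 14.1 times the lowest for H2-T24 and 5.16 times for H2-Q6, but only 1.72 times for H2-K1 and 1.65 times for H2-D1.

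Across the 16 group means, the gene most like each member in its pattern was sought among 14855 genes by Pearson's r, a description over groups that share libraries of 3 experiments. H2-T24 was most like Tgtp1 (r = 0.969), Rnf213 (0.961) and Ifi47 (0.959), and H2-T22 like Trim12a (0.970), Psmb9 (0.951) and Rnf213 (0.945). H2-T23 was most like Tnik (0.915), and Igtp was also among its closest (0.889). H2-Q6 was most like Hopx (0.957), H2-Q7 and H2-K1 like Il1rn (0.921 and 0.875), H2-D1 like Pet100 (0.934) and H2-Q4 like Siglece (0.900). H2-T10 had no close match, with Serpina12 first at 0.804, and H2-T3 was most like Ttn (0.881). Among the members themselves H2-T24 and H2-T22 were alike (0.925), as were H2-K1 and H2-Q7 (0.921), while H2-T24 and H2-Q6 ran in opposite directions (-0.553).

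The comparison of Treg with Tconv, with both genotypes weighted equally, shows which class I genes differ between the sorted cell types. H2-Q6, one of the Qa-2 genes, was the clearest: Treg held more of it in the ileum and in both node sites. In the mesenteric node H2-Q6 averaged 809 ± 59.9 CPM in Treg and 339 ± 59.0 CPM in Tconv (SD, n = 5 each), a log2 fold change of 1.26 ± 0.07 (SE; adjusted p = 7.8e-08 by edgeR's quasi-likelihood test with Benjamini-Hochberg adjustment over all genes, as for all adjusted p-values below). In the joint nodes the log2 fold change was 1.14 ± 0.06 (adjusted p = 1e-09) and in the ileum 0.70 ± 0.12 (adjusted p = 0.0021). No library of one cell type reached the values of the other in either node site.

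In the ileum 5 of the 10 genes were higher in Treg and none lower (14.8% of all genes were called in either direction, 7.93% higher): H2-K1 by 0.40 ± 0.06, H2-D1 by 0.37 ± 0.07, H2-Q6, H2-Q7 by 0.49 ± 0.10 and H2-T23 by 0.36 ± 0.09 on the log2 scale (adjusted p = 0.0016, 0.0044, 0.0021, 0.0064 and 0.022). Without the ileal libraries of experiment A only H2-Q6 passed. The H2-T23 call also needed 7 single libraries, Treg TNFdARE A and B and WT A, and Tconv TNFdARE A and C and WT A and C (adjusted p = 0.056 to 0.081). In the mesenteric node 6 were higher and 1 lower (38.6% of all genes were called, 20.8% higher and 17.8% lower): H2-K1 (0.24 ± 0.04), H2-D1 (0.26 ± 0.05), H2-Q6, H2-Q7 (0.45 ± 0.06), H2-T23 (0.22 ± 0.07) and H2-T3 (2.07 ± 0.76) were higher, and H2-T24 was lower (-0.31 ± 0.08, adjusted p = 0.0098). There the H2-T3 call ended without any one of 7 libraries (adjusted p = 0.069 to 0.51, the last without Treg WT C), and the H2-T23 call without Treg TNFdARE B or Tconv TNFdARE B or C or WT C (adjusted p = 0.061 to 0.12).

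In the joint nodes 4 were higher and 2 lower in Treg, against 43.2% of all genes called, 22.1% higher and 21.2% lower. H2-K1 (0.11 ± 0.04), H2-Q6, H2-Q7 (0.40 ± 0.06) and H2-T3 (1.23 ± 0.47, adjusted p = 0.048) were higher, and H2-T24 (-0.34 ± 0.08) and H2-T22 (-0.26 ± 0.05) lower. H2-T3 kept its call in 3 of the 12 fits that left out a library. H2-K1 lost its call without Tconv TNFdARE B (adjusted p = 0.057) or WT C (adjusted p = 0.071). In the synovium none of the 10 was called (1.1% of all genes, 0.952% higher and 0.145% lower, with 2013 genes at an unadjusted p below 0.05).

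Tissue cells were compared with cells of the draining node to see how class I genes differ by site. H2-T24 was lower in the tissue in all 4 comparisons. It stood at 20.2 ± 5.41 CPM in ileal Treg and 54.2 ± 9.90 CPM in mesenteric Treg (n = 6 and 5, log2 fold change -1.37 ± 0.15, adjusted p = 0.00017), and at 20.1 ± 4.50 CPM in ileal Tconv and 71.9 ± 23.1 CPM in mesenteric Tconv (-1.68 ± 0.14, adjusted p = 7.5e-07). It was also lower in synovial than in joint-node Treg, at 8.54 ± 5.87 against 37.7 ± 9.31 CPM (-2.07 ± 0.55, adjusted p = 0.015), and in synovial than in joint-node Tconv, at 10.5 ± 8.44 against 46.9 ± 9.23 CPM (-2.06 ± 0.42, adjusted p = 0.0049). H2-Q6 moved the other way, with 813 ± 181 CPM in ileal and 339 ± 59.0 CPM in mesenteric Tconv (1.23 ± 0.09, adjusted p = 4.7e-07) and 822 ± 125 CPM in synovial and 351 ± 77.2 CPM in joint-node Tconv (1.33 ± 0.09, adjusted p = 9e-06).

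In ileal against mesenteric Treg 3 of the 10 genes were called (29.2% of all genes), H2-Q6 (0.66 ± 0.11) and H2-Q7 (0.29 ± 0.09, adjusted p = 0.033) upward and H2-T24 downward. The H2-Q7 call ended with the experiment as a block (adjusted p = 0.057) and in 7 of the 11 fits that left out a library (adjusted p = 0.060 to 0.18). In ileal against mesenteric Tconv 7 were called (61% of all genes): H2-Q4 (0.72 ± 0.10), H2-Q6, H2-Q7 (0.26 ± 0.08) and H2-T3 (2.07 ± 0.79) upward, and H2-T24, H2-T23 (-0.22 ± 0.08) and H2-T22 (-0.40 ± 0.07) downward. H2-T3 and H2-T23 were not past the test in 6 and 8 of the 11 fits that left out a library, H2-Q7 was not past it without mesenteric TNFdARE B (adjusted p = 0.096), and with the block H2-T3 had an adjusted p of 0.063.

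In synovial against joint-node Treg 6 of the 10 were called, all downward (37.7% of all genes were called, 18.5% downward): H2-Q7 (-0.52 ± 0.10), H2-T24, H2-T23 (-0.37 ± 0.09), H2-T22 (-0.70 ± 0.12), H2-T10 (-0.51 ± 0.13) and H2-T3 (-2.58 ± 0.70, adjusted p = 0.019, or 0.053 with the block). With the counts of H2-Q6 and H2-Q7 summed, the H2-Q7 call ended (-0.13, adjusted p = 0.37). Fibroblast markers (5 genes, none at 0 throughout a synovial Treg group) summed to 1166 to 4815 CPM in TNFdARE and 10677 to 13200 CPM in WT synovial Treg, whereas joint-node Treg held 0.665 to 1.74 CPM in TNFdARE and 0.427 to 1.02 CPM in WT. In synovial Tconv they summed to 787 to 1574 CPM in TNFdARE and 216 CPM in WT. This RNA moved with site and, in the synovium, with genotype, and its part in the values of the 10 genes was not tested. In synovial against joint-node Tconv 5 were called (34.8% of all genes), H2-D1 (0.28 ± 0.08) and H2-Q6 upward and H2-T24, H2-T23 (-0.41 ± 0.08) and H2-T22 (-0.49 ± 0.12) downward. The H2-D1 call ended without joint-node TNFdARE B or C or WT B (adjusted p = 0.065 to 0.12), and with the counts of H2-K1 and H2-D1 summed (0.13, adjusted p = 0.13). Of the exact 100-base runs of H2-K1 and H2-D1 transcripts, only 0.957% and 3.59% were found in any other gene. Their sum thus joins distinct genes and is no check on shared reads. With the part of the sample sheet (numbers 1 to 32 or 33 to 44, a split made here) as a covariate the T-region calls in Tconv ended. The log2 fold changes were -0.52 for H2-T24 and -0.10 for H2-T22. Only 1 synovial Tconv library, TNFdARE B at number 11, lay in the same part as the joint-node Tconv libraries, so these values rest on it. The call of H2-T24 in Treg ended too (adjusted p = 0.089).

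TNFdARE and WT cells were compared within each cell type and site to ask what the altered Tnf transcript goes with in each population. Tnf itself, the altered gene, was past the test in mesenteric Treg alone among the 8 comparisons, at 111 and 58.0 CPM in TNFdARE (B and C) against 41, 44.4 and 28.1 CPM in WT (1.17 ± 0.28, adjusted p = 0.031). That call ended without TNFdARE B (adjusted p = 0.38) or WT A, B or C (0.063, 0.068 and 0.087). The mesenteric Treg call also ended in a single fit of all 42 libraries (adjusted p = 0.33). With the experiment as a block Tnf was also past the test in mesenteric Tconv (1.29, adjusted p = 0.0023) and in Treg and Tconv of the joint nodes (0.42 and 0.63, adjusted p = 0.041 and 0.0096). Without the low-count filter it was past the test in those groups too (adjusted p = 1.2e-14, 0.0053 and 1.6e-05). DESeq2 called it in ileal Treg (0.73, adjusted p = 0.0086). Averaged over both cell types in the ileum and both node sites, Tnf was higher by 0.68 ± 0.11 (adjusted p = 7.9e-05).

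Of the 10 class I genes, H2-T10 was called higher in TNFdARE in 5 of the 8 comparisons, H2-T3 in 4 and H2-Q6 in 1, and none of these was called lower in any. H2-T24 was called lower in 4, H2-T23 in 2 and H2-T22 in 1, all of them in the nodes, and none of these was called higher in any. Of 13425 genes tested in all 8 comparisons, 11.9% were called in at least 1, in either direction. The shares called in at least 2, 4 and 5 were 4.63%, 1.28% and 0.469%. In the main fits the classical genes H2-K1 and H2-D1 and the Q-region gene H2-Q4 were, like H2-Q7, called in none of the 8 comparisons. Log2 fold changes lay between -0.15 and 0.25 for H2-K1, -0.11 and 0.28 for H2-D1, and -0.24 and 0.34 for H2-Q4. DESeq2, which called more of all genes in the ileum, called H2-K1 in ileal Treg and Tconv (0.25 and 0.23, adjusted p = 0.0039 and 0.0075). H2-Q7 was past the test there with DESeq2 (adjusted p = 0.0018 and 0.0039) and in a single fit of all 42 libraries (0.0036 and 0.014). In the average over 6 differences, H2-T3 (5.39 ± 0.48), H2-T10 (0.77 ± 0.05), H2-Q6 (0.35 ± 0.05) and H2-Q7 (0.28 ± 0.05) were higher and H2-T24 (-0.36 ± 0.07) and H2-T22 (-0.21 ± 0.04) lower, 6 of 10 against 12.5% of all genes (7.97% higher and 4.52% lower). In a single fit of all 42 libraries the averaged H2-T24 call ended (-0.36, adjusted p = 0.46). With the counts of H2-T10 and H2-T22 summed, the averaged calls of both ended and the sign of H2-T22 turned (0.11, adjusted p = 0.062). The averages of H2-K1, H2-D1, H2-Q4 and H2-T23 (0.04 ± 0.03, 0.04 ± 0.03, 0.04 ± 0.08 and -0.11 ± 0.04) were not past the test. In single comparisons, 3 of the 10 were called in mesenteric Treg, 2 higher and 1 lower (5.68% of all genes, 3.84% higher and 1.84% lower). In mesenteric Tconv 4 were called, 2 higher and 2 lower (2.36% of all genes, 1.79% higher and 0.574% lower). In Treg of the joint nodes 4 were called, 1 higher and 3 lower (5.7% of all genes, 3.36% higher and 2.34% lower), and in Tconv there 4, 3 higher and 1 lower (2.79% of all genes, 2.29% higher and 0.504% lower). H2-T3, which passed the filter in the nodes only through the libraries where it was high, is 1 of those called in each of these 4. With all 42 libraries in a single fit, 1 and 2 were called in mesenteric Treg and Tconv and 0 and 1 in Treg and Tconv of the joint nodes. Libraries of the genotypes also did not overlap for H2-K1 in 4 and for H2-Q7 in 6 of the 8 comparisons, though neither was called. With at most 3 libraries a group such separation is easily reached. Its share over all genes was not counted, so the statements of overlap below are descriptions.

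**Figure D2:**
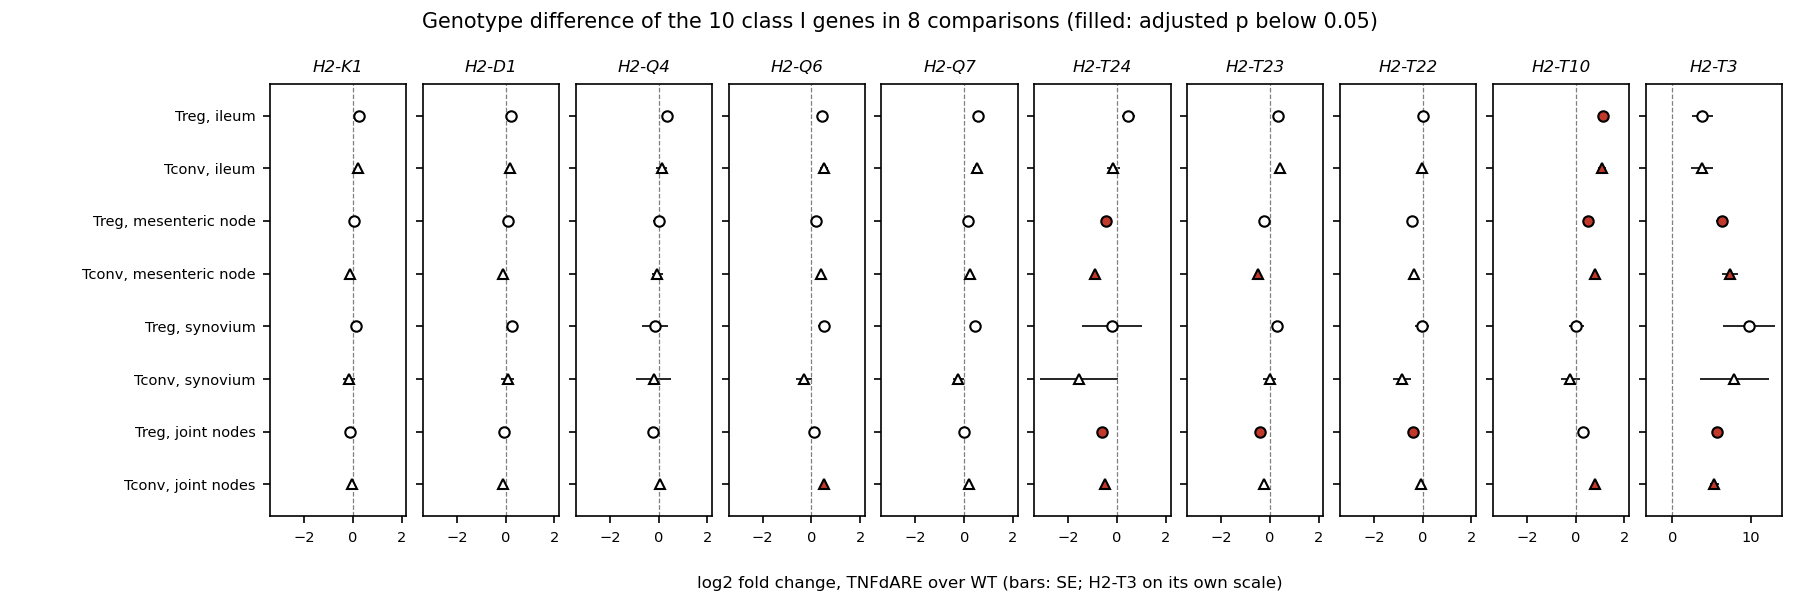
Log2 fold changes of TNFdARE over WT (x axes, bars are SE, H2-T3 on its own scale) of the 10 class I genes in the 8 comparisons of cell type and site (rows); filled symbols have an adjusted p below 0.05. H2-T10 is filled in 5 rows, H2-T3 and H2-T24 in 4 each, and H2-K1, H2-D1, H2-Q4 and H2-Q7 in none. Of 13425 genes tested in all 8 comparisons, 1.28% were called in at least 4 and 0.469% in at least 5.

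H2-T3, the thymus leukaemia antigen gene, was the member closest to absent in WT cells. In ileal Treg it stood at 22.7, 18.6 and 20 CPM in TNFdARE, against 1.66, 2.54 and 0 CPM in WT. In ileal Tconv it stood at 5.83, 2.93 and 3.04 CPM in TNFdARE, against 0.690, 0 and 0.158 CPM in WT. At both, every TNFdARE library was above every WT library. In mesenteric Treg it stood at 7.86 and 10.2 CPM in TNFdARE, against 0, 0.0319 and 0.354 CPM in WT, and in mesenteric Tconv at 2.98 and 3.40 CPM in TNFdARE, against 0, 0 and 0.0390 CPM in WT. In Treg of the joint nodes it stood at 8.17, 6.85 and 6.96 CPM in TNFdARE, against 0.0425, 0.228 and 0.147 CPM in WT, and in Tconv there at 1.72, 3.73 and 2.88 CPM in TNFdARE, against 0, 0.0951 and 0.0981 CPM in WT. No value overlapped between genotypes in either node site. In synovial Treg it stood at 5.37, 3.37 and 6.48 CPM in TNFdARE and at 0 in both WT libraries, and in synovial Tconv at 0 and 2.62 CPM in TNFdARE and 0 in the WT library, the only group in which a TNFdARE library held none.

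**Figure D3:**
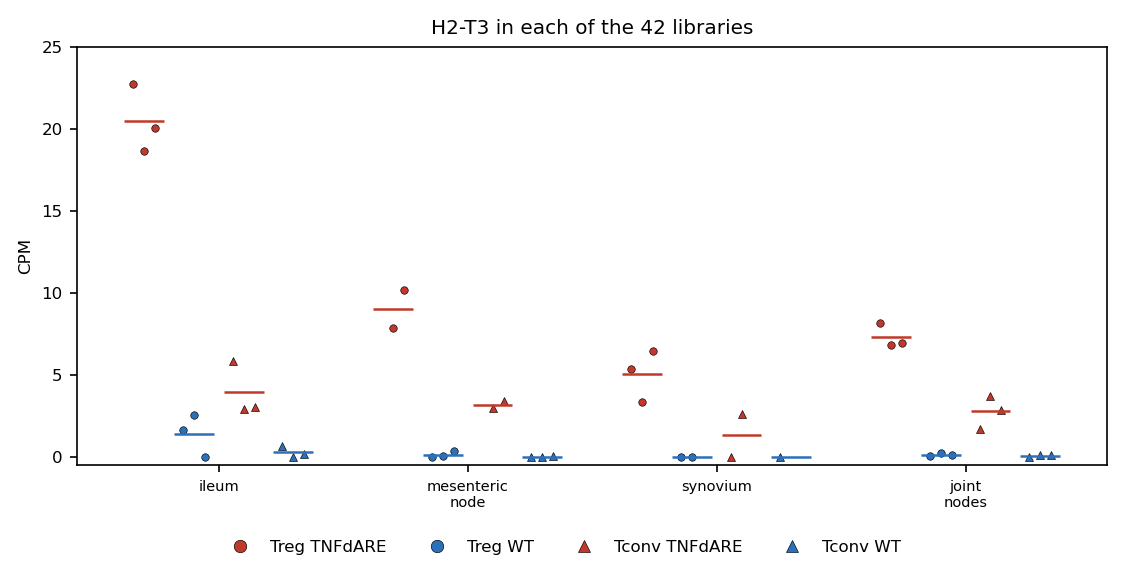
H2-T3 in CPM (y axis, linear) in each of the 42 libraries by site, with Treg as circles, Tconv as triangles, TNFdARE in red, WT in blue and bars at group means. TNFdARE ileal Treg lie at 18.6 to 22.7 CPM, and no WT library exceeds 2.54 CPM.

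The H2-T3 counts summed over a group gave ratios of TNFdARE to WT of 83.7 (95% counting interval 42.1 to 195) in mesenteric Treg and 231 (40.8 to 9195, with 1 WT count) in mesenteric Tconv. They were 53.7 (28.1 to 118) in Treg and 45.4 (17.4 to 168) in Tconv of the joint nodes. In the ileum, where WT cells held more of it, they were 14.4 (11.5 to 18.2) in Treg and 15.4 (9.15 to 27.9) in Tconv. Against a floor of 3 counts over the WT group, synovial Treg were at least 70.2-fold and synovial Tconv at least 8.99-fold higher. H2-T3 was called in the 4 node comparisons, with adjusted p-values of 0.00067 and 0.0024 in mesenteric Treg and Tconv and 4.2e-05 and 0.00013 in Treg and Tconv of the joint nodes. Having passed the low-count filter there only through its TNFdARE libraries, it had to differ, and these p-values add little to the counts above. It was not past the test in the ileum (adjusted p = 0.25 in Treg and 0.39 in Tconv) or the synovium (0.43 and 0.77), while DESeq2 called it in ileal Treg and Tconv and in synovial Treg (adjusted p = 0.021, 0.034 and 0.04). With all 42 libraries in a single fit, the calls of the joint nodes ended (0.093 and 0.15).

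H2-T3 is known from gut epithelium, so epithelial RNA was set beside it. The summed epithelial markers of ileal Treg spanned 24.6 to 738 CPM in TNFdARE and 42.6 to 485 CPM in WT, and those of ileal Tconv 22.4 to 102 CPM in TNFdARE and 10.9 to 84.3 CPM in WT, overlapping ranges. The library with the least epithelial RNA among TNFdARE ileal Treg, experiment C at 24.6 CPM, held 20 CPM of H2-T3, and experiment A with 738 CPM held 22.7 CPM. In the nodes, where H2-T3 was called, the epithelial sum was 27.6 to 29.3 CPM in TNFdARE and 20.9 to 25 CPM in WT mesenteric Treg, and 20.8 to 29.6 CPM in TNFdARE and 20.5 to 31.8 CPM in WT Treg of the joint nodes, with Fabp2 at 0 in each of these 4 groups. In Tconv it was 7.49 to 8.83 CPM in TNFdARE and 6.37 to 7.20 CPM in WT of the mesenteric node, and 8.93 to 13.2 CPM in TNFdARE and 6.17 to 8.69 CPM in WT of the joint nodes, higher in every TNFdARE than in every WT library at both. In Treg of the mesenteric node the ranges did not overlap either. Besides Fabp2, Krt20 was at 0 in both joint-node Treg groups, and Krt8, Krt19 and Krt20 in TNFdARE mesenteric Treg. In mesenteric Tconv Krt8, Fabp2 and Krt20 were at 0 in both genotypes and Krt19 in TNFdARE. Fabp2 was also at 0 in WT Tconv of the joint nodes. The sums in these groups thus rest on part of the 8 markers, and the part of epithelial RNA in the H2-T3 values was not tested. No other gene shared an exact run of 100 bases, the read length, with H2-T3.

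H2-T10, a ligand gene of gamma delta T cells, was the member called most often, in 5 of the 8 comparisons. Of 13425 genes tested in all 8, 0.469% were called in at least 5. In ileal Treg it stood at 149, 103 and 125.5 CPM in TNFdARE, against 59.8, 51.1 and 59.4 CPM in WT (1.14 ± 0.15, adjusted p = 0.0074, 2.2-fold). In ileal Tconv it stood at 121, 95.5 and 104 CPM in TNFdARE, against 55.3, 49.6 and 45.8 CPM in WT (1.09 ± 0.15, adjusted p = 0.0041). The genotypes did not overlap at either. It was the only one of the 10 called in ileal Treg (0.729% of all genes, 0.484% higher) and in ileal Tconv (1.31% of all genes, 1.17% higher). Without the ileal libraries of experiment A, an omission chosen after the data were seen, the log2 fold changes were 1.04 and 1.08 and neither was past the test (adjusted p = 0.12 and 0.070).

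In mesenteric Treg H2-T10 stood at 93.7 and 85 CPM in TNFdARE, against 61.5, 70.7 and 57.4 CPM in WT (0.52 ± 0.11, adjusted p = 0.016, or 0.20 without TNFdARE B). In mesenteric Tconv it stood at 112 and 96.5 CPM in TNFdARE, against 64.5, 59.7 and 54.6 CPM in WT (0.79 ± 0.11, adjusted p = 0.0026). In Tconv of the joint nodes it stood at 103.5, 89.4 and 94.2 CPM in TNFdARE, against 62.5, 54.1 and 49.6 CPM in WT (0.79 ± 0.09, adjusted p = 8.3e-05). All 3 groups of TNFdARE libraries lay above their WT libraries. In Treg of the joint nodes it stood at 85.6, 77.0 and 84.0 CPM in TNFdARE, against 62.8, 67.7 and 68.2 CPM in WT, also without overlap, and was not past the test (0.31 ± 0.09, adjusted p = 0.053), but was with the block (0.30, adjusted p = 0.031). Over these 3 sites the 16 TNFdARE libraries spanned 77.0 to 149 CPM and the 18 WT libraries 45.8 to 70.7 CPM. The synovium differed in this: synovial Treg held 47.2, 41.7 and 63.8 CPM in TNFdARE and 49.9 and 52.7 CPM in WT, and synovial Tconv 72.2 and 56.8 CPM in TNFdARE and 76.9 CPM in WT. There the log2 fold changes were 0.03 ± 0.30 and -0.22 ± 0.39.

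H2-T10 and H2-T22 are close copies, and 7.06% of the 100-base windows of H2-T10 transcripts were also found exactly in H2-T22, so how reads were shared between them is uncertain. Another 22.5% of H2-T10 windows and 24% of H2-T22 windows also lay in antisense genes (BC023719 and A930015D03Rik) that held at most 0.316 and 0.195 CPM. The ratio of H2-T10 to H2-T22 counts was 0.687 to 1.01 in TNFdARE ileal Treg, against 0.354 to 0.413 in WT. It was 0.687 to 0.934 in TNFdARE and 0.333 to 0.372 in WT ileal Tconv, 0.607 to 0.637 in TNFdARE and 0.294 to 0.349 in WT mesenteric Treg, and 0.613 to 0.659 in TNFdARE and 0.266 to 0.295 in WT mesenteric Tconv. In the joint nodes it was 0.589 to 0.646 in TNFdARE and 0.339 to 0.427 in WT Treg, and 0.513 to 0.601 in TNFdARE and 0.281 to 0.322 in WT Tconv. In 7 of 8 comparisons all TNFdARE ratios were above all WT ratios, the exception being synovial Treg (0.419 to 0.799 in TNFdARE and 0.522 to 0.569 in WT). Among the 7 is synovial Tconv, at 0.522 to 0.968 in TNFdARE against 0.450 in its single WT library. How often the ratios of other gene pairs separate the genotypes was not counted. When the counts of the pair were summed, the pair was called in none of the 5 comparisons in which H2-T10 was called, with log2 fold changes of 0.42 and 0.37 in ileal Treg and Tconv (adjusted p = 0.099 and 0.16), -0.14 and -0.03 in mesenteric Treg and Tconv, and 0.19 in Tconv of the joint nodes (adjusted p = 0.27).

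**Figure D4:**
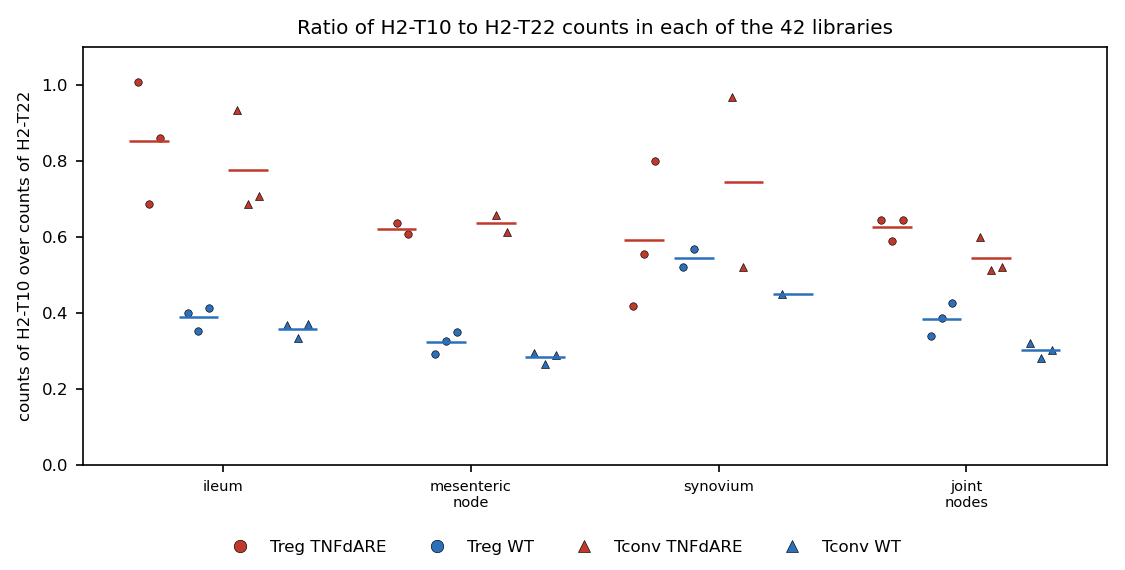
Ratio of H2-T10 to H2-T22 counts (y axis, linear from 0) in each of the 42 libraries by site (x axis), with Treg as circles, Tconv as triangles, TNFdARE in red, WT in blue and bars at group means. In the ileum and nodes TNFdARE ratios lie at 0.513 to 1.01 and WT ratios at 0.266 to 0.427.

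H2-T22, the partner of H2-T10, was lower in TNFdARE Treg of the joint nodes, at 132, 131 and 130 CPM against 185, 175 and 160 CPM in WT (-0.41 ± 0.07, adjusted p = 0.0042). Those groups did not overlap, and with the counts of H2-T10 added the pair was not past the test (-0.17, adjusted p = 0.17). In mesenteric Treg it stood at 147 and 140 CPM in TNFdARE, against 209, 216 and 164 CPM in WT (-0.43 ± 0.12, adjusted p = 0.057, or -0.38 and 0.033 with the block). In the ileum it stood at 146 to 150 CPM in TNFdARE and 144 to 150 CPM in WT Treg, with no call.

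H2-T24 was lower in TNFdARE in all 4 node comparisons. In mesenteric Tconv it stood at 50.7 and 45.0 CPM in TNFdARE, against 99, 83.9 and 81.1 CPM in WT (-0.89 ± 0.12, adjusted p = 0.0023, 1.85-fold lower). In Treg of the joint nodes it stood at 28.5, 34.2 and 26.7 CPM in TNFdARE, against 47.2, 41 and 48.4 CPM in WT (-0.61 ± 0.11, adjusted p = 0.0054). Both calls held in every fit that left out a library. In mesenteric Treg it stood at 47.6 and 40.8 CPM in TNFdARE, against 61.9, 64.5 and 56.0 CPM in WT (-0.44 ± 0.12, adjusted p = 0.047). In Tconv of the joint nodes it stood at 40.3, 41.7 and 34.7 CPM in TNFdARE, against 52.2, 57.1 and 55.6 CPM in WT (-0.50 ± 0.11, adjusted p = 0.026). No genotype overlapped in the nodes, but the mesenteric Treg call ended without any one of TNFdARE B or C or WT A, B or C (adjusted p = 0.051 to 0.28), and the call in Tconv of the joint nodes ended without TNFdARE A or C or WT B or C (0.074 to 0.15). In a single fit of all 42 libraries none of the 4 was past the test. In the ileum the log2 fold changes were 0.46 ± 0.26 in Treg and -0.15 ± 0.26 in Tconv. No other gene shared a 100-base run with H2-T24.

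H2-T23, the Qa-1 gene, was lower in TNFdARE Treg of the joint nodes, at 426, 377 and 376 CPM against 545, 507 and 513 CPM in WT (-0.41 ± 0.07, adjusted p = 0.0043). It was also lower in TNFdARE mesenteric Tconv, at 434.6 and 429.8 CPM against 627, 640 and 543 CPM in WT (-0.49 ± 0.10, adjusted p = 0.028). The genotypes did not overlap at either site. The mesenteric call ended without TNFdARE B or C or WT A or B (adjusted p = 0.12, 0.23, 0.10 and 0.12). In Tconv of the joint nodes it was not past the test (-0.25 ± 0.07, adjusted p = 0.12, or 0.041 with the block). Ileal Tconv ran the other way, at 470, 543 and 497 CPM in TNFdARE against 361, 429 and 335 CPM in WT, without overlap and not past the test (0.43 ± 0.13, adjusted p = 0.23).

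The test of that difference between sites in Tconv was past the threshold for H2-T23 alone among the 10 (0.624% of all genes). The genotype difference was larger in the ileum than in the mesenteric node by 0.90 ± 0.16 on the log2 scale (adjusted p = 0.028). It was past the test in 3 of the 11 fits that left out a library (adjusted p from 0.016 to 0.13), and not without the ileal libraries of experiment A (0.92, adjusted p = 0.070). None of the 10 was past the test for a genotype difference that differs between Treg and Tconv in the ileum, mesenteric node or joint nodes (0.0188%, 0.209% and 0.449% of all genes; 646, 1152 and 1151 genes at an unadjusted p below 0.05), where DESeq2 called 0, 0 and 1 of the 10. None was past it between ileum and mesenteric node in Treg (0.00598% of all genes, 760 genes at an unadjusted p below 0.05) or between the node sites in Treg (0.351%, 1079 genes) or Tconv (0% of all genes, 482 genes at an unadjusted p below 0.05).

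H2-Q6 was higher in TNFdARE Tconv of the joint nodes, at 436.5, 348 and 450 CPM against 319.5, 272.6 and 276.5 CPM in WT (0.50 ± 0.08, adjusted p = 0.0024, 1.42-fold). The genotypes did not overlap there, and in a single fit of all 42 libraries it was not past the test (adjusted p = 0.16). In mesenteric Tconv it stood at 369 and 423 CPM in TNFdARE, against 328, 274 and 299 CPM in WT (0.39 ± 0.10, adjusted p = 0.068, or 0.45 and 0.019 with the block). In ileal Treg it stood at 1620, 1247 and 1612 CPM in TNFdARE, against 1261, 906 and 1142 CPM in WT, which overlap, and in ileal Tconv at 1074, 803 and 975 CPM in TNFdARE, against 764, 609 and 651 CPM in WT, which do not. In each of these experiments the TNFdARE library was above its WT counterpart, and with the experiment as a block both were past the test (0.43 and 0.49, adjusted p = 0.028 and 0.0098), against 0.31 and 0.30 without it. H2-Q7, its close copy, behaved likewise in the ileum, at 1665, 1538 and 1975 CPM in TNFdARE Treg against 1284, 1056 and 1129 CPM in WT (0.56 ± 0.14, adjusted p = 0.11, or 0.020 with the block), and in Tconv by 0.51 ± 0.14 (adjusted p = 0.15, or 0.023 with the block). The block thus took the count of members called in ileal Treg and in ileal Tconv to 3 each. Of the H2-Q6 windows 8.36% were also found in H2-Q7.

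TNFdARE Tconv carried more Treg marker RNA (Foxp3, Il2ra, Ikzf2 and Ctla4, none at 0) than WT Tconv, at a summed 92.4 to 124 CPM in TNFdARE and 32.6 to 38.7 CPM in WT Tconv of the joint nodes. The sums were 117 to 196 CPM in TNFdARE and 46.1 to 71.5 CPM in WT mesenteric Tconv, and 2601 to 3067 CPM in TNFdARE and 1546 to 1768 CPM in WT ileal Tconv. Treg libraries held 2941 to 6536 CPM. Since H2-Q6 and H2-T3 were higher in Treg than in Tconv in the nodes, these markers moved with the Tconv values of both, and their part in them was not tested.

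In the synovium none was called (0.156% of all genes in Treg, 0.111% higher and 0.0445% lower, and 0.512% in Tconv, 0.501% higher and 0.0111% lower, with 1792 and 1498 genes at an unadjusted p below 0.05), where DESeq2 called 1 in Treg and 0 in Tconv. The median absolute log2 fold change of the 10 was 0.38 in mesenteric Tconv and 0.23 in Tconv of the joint nodes, against 0.16 and 0.14 over all genes, and 0.21 in mesenteric Treg against 0.22 over all genes. In ileal Treg all 10 had a log2 fold change above 0 (median 0.38, against 0.0004 over all genes). In ileal Tconv 8 did (median 0.33, against -0.02). The numbers above 0 were 7 and 4 in mesenteric Treg and Tconv, 3 and 5 in those of the joint nodes, and 7 and 2 in the synovium. In simulated counts, 2-fold changes were put into genes drawn at random from all that passed the filter. Of these changes 66.7% were recovered in Treg of the joint nodes and 27.3% in ileal Treg. A change of that size was thus less often detectable in the ileum over genes of all levels. These rates do not give the rate for the 10 genes.

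Other genes of the class I pathway were compared in the same way, 13 of them outside chromosome 17. In ileal Treg Irf2, an interferon regulatory factor, rose (0.66 ± 0.10, adjusted p = 0.015) and none of the 13 fell. The Irf2 call ended without TNFdARE B or WT A or C (adjusted p = 0.058 to 0.081). Nlrc5, the transactivator of class I promoters, fell in mesenteric Treg (-0.47 ± 0.10, adjusted p = 0.022) and in joint-node Treg (-0.49 ± 0.10, adjusted p = 0.011). These calls ended without TNFdARE B or WT B or C in the mesenteric node (adjusted p = 0.051 to 0.19) and without TNFdARE A or WT C in the joint nodes (0.083 and 0.059). Calr, an endoplasmic reticulum chaperone, was the only one of the 13 to rise in mesenteric Treg (0.37 ± 0.09, adjusted p = 0.03), a call that ended without TNFdARE B or C or WT B (adjusted p = 0.068 to 0.25), and none of the 13 was called in mesenteric, joint-node or synovial Tconv or in synovial Treg.

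B2m, the light chain of all these molecules, was called in none of the 8 comparisons of the main fits. It averaged 6167 ± 558 CPM in TNFdARE and 4266 ± 633 CPM in WT ileal Treg (0.52 ± 0.13, adjusted p = 0.12). There it was past the test with DESeq2 (0.51, adjusted p = 0.0012) and in a single fit of all 42 libraries (0.55, adjusted p = 0.0057). That fit also called B2m in synovial Treg (0.40, adjusted p = 0.027), and the block in mesenteric Treg (0.36, adjusted p = 0.033). Its average over 6 differences in the main fit was 0.19 ± 0.05 (adjusted p = 0.0050). Of 5 pathway genes on chromosome 17, 3 rose in ileal Treg and none fell: Tap2 (0.69 ± 0.09, adjusted p = 0.0063), Tap1 (0.60 ± 0.09, adjusted p = 0.011) and Tapbp (0.68 ± 0.11, adjusted p = 0.019). Of all genes, 0.484% were called higher there. Tap1 lost its call without WT A (adjusted p = 0.058) and Tapbp without TNFdARE B or WT A or C (0.066 to 0.085). In Treg of the joint nodes Tap1 fell (-0.35 ± 0.07, adjusted p = 0.0070), and no other of the 5 was called in any of the 8 comparisons, but with the block Tap2 was past the test in ileal Tconv (0.39, adjusted p = 0.038).

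In the nodes NF-kB targets were called higher and type I interferon-induced genes lower in TNFdARE, while genes induced by interferon-gamma had calls in both directions. Of 10 NF-kB targets, 4 rose in mesenteric Treg, 4 in mesenteric Tconv, 5 in Treg and 6 in Tconv of the joint nodes, and none fell. Of all genes, 3.84%, 1.79%, 3.36% and 2.29% were called higher in the same order, and 1.84%, 0.574%, 2.34% and 0.504% lower. Nfkb2, a subunit of the factor, was higher in Tconv of the joint nodes by 1.06 ± 0.08 (adjusted p = 3.2e-06), and Cd83, an activation marker, by 2.36 ± 0.16 (adjusted p = 6.7e-07). Of 10 type I interferon-induced genes, 9 fell in mesenteric Treg, 9 in mesenteric Tconv, 10 in Treg and 9 in Tconv of the joint nodes, and none rose. Ifit3, an antiviral protein gene, was lower in joint-node Treg (-3.01 ± 0.28, adjusted p = 2.9e-05), and Usp18, which restrains interferon signalling, too (-1.64 ± 0.12, adjusted p = 3.8e-06). In a single fit of all 42 libraries that Usp18 call ended (adjusted p = 0.21). Every node call of Rtp4, another type I interferon-induced gene, and of Irgm1, induced by interferon-gamma, ended in that fit. So did the Nfkb2 call in mesenteric Tconv (0.65), while those of Nfkb2 and Cd83 in joint-node Tconv and of Ifit3 in joint-node Treg held. In the ileum no NF-kB target was called, but with the block Relb, another subunit of the factor, was past the test in Treg (0.60, adjusted p = 0.019) and Tconv (0.71, adjusted p = 0.0061), and Nfkb2 in Tconv (0.78, adjusted p = 0.012). There 1 type I interferon-induced gene fell in Treg and 3 in Tconv. Of 10 interferon-gamma-induced genes, 8 were tested in the nodes: 1 rose and 2 fell in mesenteric Treg, 1 rose and 2 fell in mesenteric Tconv, 0 rose and 3 fell in Treg and 1 rose and 3 fell in Tconv of the joint nodes. In the ileum 1 of the 10 rose in Treg and 1 in Tconv and none fell. Of all genes, 0.484% and 1.17% were called higher in ileal Treg and Tconv, and 0.245% and 0.138% lower. Gbp2, a guanylate-binding protein gene, was higher in ileal Treg (0.93 ± 0.14, adjusted p = 0.015, lost without TNFdARE B or WT A at 0.064 and 0.055), and its relative Gbp3 in ileal Tconv (1.12 ± 0.14, adjusted p = 0.0023). Igtp, an immunity-related GTPase gene, was lower in joint-node Treg (-0.54 ± 0.08, adjusted p = 0.00097). In the synovium Cd83 in Tconv was the only gene called of the 3 lists, a call that ended without TNFdARE A or B (adjusted p = 0.092 and 0.073) and with the block (0.071). The lists were chosen with earlier results of these data known, and whether any of these bears on the class I genes was not tested.

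Distance from Tnf was examined by counting called genes in windows around its start. In the nodes, genes 0.5 to 1 Mb from Tnf, where the T region lies, were called at 14% in mesenteric Treg (7 of 50), 14% in mesenteric Tconv (7 of 50), 14.6% in Treg (7 of 48) and 12.5% in Tconv (6 of 48) of the joint nodes. Genes on other chromosomes were called at 5.69%, 2.39%, 5.62% and 2.81% in the same order. Within 0.5 Mb, where H2-D1 and the Q genes lie, the shares were 9.8%, 0%, 6.25% and 2.08%. The bin from 0.5 to 1 Mb holds 5 of the members, and without them it stood at 8.89%, 6.67%, 6.98% and 6.98%, 3 or 4 genes each. Gm8810, described below, is among those genes in each comparison. It and the member H2-T3 passed the low-count filter in the nodes only through TNFdARE libraries, so both had to differ. Genes within 1 Mb stood at 9.78%, 3.26%, 6.9% and 3.45% without the members. From 1 to 5 Mb the shares were 5.88%, 0.98%, 10.9% and 0.99%, so that in joint-node Treg this bin was called as often as genes within 1 Mb (10.4%). The counts behind these shares are small, and neighbouring genes that share reads or regulators are not independent.

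**Figure D5:**
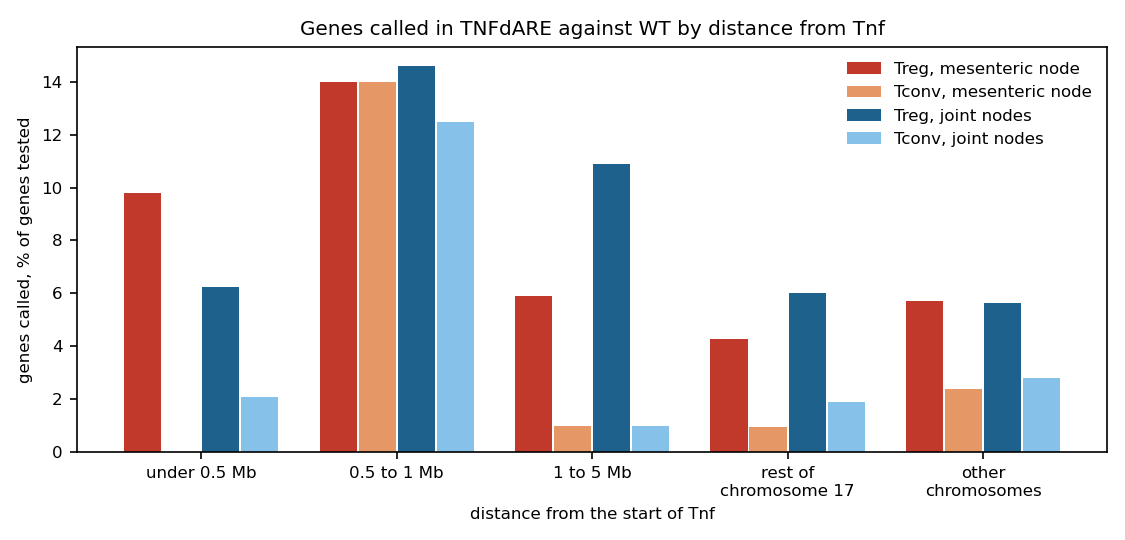
Share of tested genes called in TNFdARE against WT (y axis, percent, from 0) by distance from the Tnf start (x axis), for Treg and Tconv of the mesenteric node and the joint nodes (bars). The bars of the bin from 0.5 to 1 Mb stand at 12.5% to 14.6%, against 2.39% to 5.69% on other chromosomes, and 5 of the members lie in that bin. H2-T3 and Gm8810, which passed the low-count filter in the nodes only through TNFdARE libraries, are counted in each bar of that bin.

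A few neighbours of the members, singled out after their values were seen, also differed between genotypes. Gm8810, an unprocessed pseudogene at chr17:36066108-36067753 between H2-T22 and H2-T10, held 59 to 269 counts in each TNFdARE group and 0 to 3 in each WT group. In ileal Treg it stood at 4.36, 4.43 and 4.01 CPM in TNFdARE and at 0 in all 3 WT libraries, at least 82.5-fold higher. Having been picked for these values, and passing the low-count filter only where it is high, it is given as a description with no test. The TNFdARE synovial Tconv library of experiment A, which held no H2-T3, held 48 counts of Gm8810. Ltb, the lymphotoxin beta gene beside Tnf, was higher in ileal Treg by 1.19 ± 0.15 (adjusted p = 0.0063) and in mesenteric Treg by 0.48 ± 0.08 (adjusted p = 0.0031), and Tubb5, a beta tubulin gene, in joint-node Treg by 0.69 ± 0.07 (adjusted p = 7.3e-05). Among 22 other class I heavy chain genes of chromosome 17, of which 6 to 9 were tested per comparison, H2-T-ps rose in Treg and Tconv of the joint nodes (0.60 ± 0.12 and 0.55 ± 0.12, adjusted p = 0.0099 and 0.025, the second lost without TNFdARE A or C or WT B or C at 0.074 to 0.12; with the block also past the test in ileal Treg and Tconv at 0.046 and 0.016) and H2-K2 fell in Treg there (-0.44 ± 0.09, adjusted p = 0.012). Of 10 class I-like genes on other chromosomes, 6 to 9 were tested per comparison, and Fcgrt in mesenteric Treg was the only one called (1.66 ± 0.40, adjusted p = 0.033).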

How the data were processed

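RNA of sorted Treg and Tconv was amplified with SMART-Seq v4 PLUS and sequenced as single reads, per the labels' protocols. The deposited counts are whole reads per gene, unnormalized; reads were trimmed with cutadapt 1.15 and aligned to GRCm38 with Bowtie2 2.3.3.1, per the submitters' processing notes. The counting program and its use of strand are not given in the sources used here. The authors also deposited an FPKM table of 18964 genes, used here only to describe the members. Of 46603 gene IDs, 46091 matched a GENCODE symbol.

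Counts were analysed with edgeR 4.0.16 in R 4.3.3 (TMM factors, filterByExpr, quasi-likelihood test, Benjamini-Hochberg adjustment over all genes tested), and a gene was called at an adjusted p below 0.05. Each site was fitted alone with 4 groups; tissue was compared with node in a fit of that pair of sites; the averaged genotype difference used the ileum and both node sites. The error beside a log2 fold change is its standard error. Shown levels are CPM on TMM factors over all 42 libraries, and marker sums are CPM on total counts. A floor of 3 counts over a group stands for 0. The scripts were tested on simulated data.

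The named genes were the 10 members, Tnf, and the called or exemplary genes of lists of class I, NF-kB and interferon genes. The members and lists were chosen with earlier results of these data known. The letters A, B and C mark 3 independent experiments in the labels, which pairs the samples. Of 18 same-letter pairs, 8 correlated above 0.1 in their deviations from group means (-0.529 to 0.458, median 0.0825). The main fits have no block. Alternatives were the blocked fit, DESeq2 1.42.0, other size factors, no low-count filter and the sample-sheet part. Further ones were 1 fit of all libraries, summed gene pairs and leaving out each library. The pairs were H2-Q6 with H2-Q7, H2-T10 with H2-T22, and H2-K1 with H2-D1. The sample-sheet part was a split, made here after number 32, of the S numbers in the column names. The labels do not name it as a batch. The results of 1 gene of these lists are not reported here.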

Additional observations from a re-analysis of the deposited data

Results flagged for a closer look

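H2-T23, the Qa-1 gene, was the only one of the 10 whose genotype difference was past the test for differing between sites. In Tconv it was larger in the ileum than in the mesenteric node by 0.90 on the log2 scale (SE 0.16, adjusted p = 0.028 by edgeR's quasi-likelihood test). The call ended without ileal TNFdARE B or C or WT A or C, or mesenteric TNFdARE B or C or WT A or B (adjusted p = 0.056 to 0.13). Over all 11 omissions the log2 difference lay between 0.83 and 1.01. Ileal Tconv were at 470, 543 and 497 CPM in TNFdARE and 361, 429 and 335 CPM in WT, and mesenteric Tconv at 434.6 and 429.8 CPM in TNFdARE and 627, 640 and 543 CPM in WT.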

How the results depend on the processing

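Of 63 calls of members over all comparisons, 48 held in every fit that left out a library, and of 17 genotype calls within a cell type and site, 13 did. The 13 include the 4 node calls of H2-T3, which had to differ there because of the low-count filter. Numbers of members called moved as follows. In ileal Treg, where 1 was called for genotype, DESeq2 called 4, the replicate block 3 and 1 fit of all 42 libraries 2. Summing gene pairs or omitting the ileal libraries of experiment A gave 0. In ileal Tconv (1) these gave 6, 3, 2, 0 and 0. For Treg against Tconv in the ileum (5), no low-count filter gave 3, the sample-sheet part 3, and omitting experiment A 1. The single fit gave 1 for mesenteric Treg (3), 2 for mesenteric Tconv (4), 0 for Treg (4) and 1 for Tconv (4) of the joint nodes, 3 and 1 for synovial Treg and Tconv (0 each), and 4, 2 and 3 for Treg against Tconv in the mesenteric node (7), synovium (0) and joint nodes (6). DESeq2 gave 1 in synovial Treg (0), and 1 for Treg minus Tconv in the joint nodes (0). For ileal against mesenteric Treg (3), other size factors gave 5, DESeq2 6 and the single fit 5. Omitting experiment A gave 4 for Tconv there (7). For the site difference of the genotype effect in Tconv (1), no filter and DESeq2 gave 2 each and omitting experiment A 0. The sample-sheet part gave 3 for synovial against joint-node Tconv (5). Leaving out 1 library gave 1 to 3 in mesenteric Treg (1 without TNFdARE B), 2 to 5 and 4 to 8 for ileal against mesenteric Treg and Tconv, and 0 to 1 for that site difference. Summing gene pairs turned the sign of H2-T22 averaged over sites (0.11), and of H2-T10 in mesenteric Treg and Tconv (-0.14 and -0.026). It also turned that of H2-T10 between Treg and Tconv of the joint nodes (-0.18), and of H2-Q7 in synovial against joint-node Tconv (0.49). The cause of these changes was not tested, except that a summed value holds the counts of both genes.

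Over all genes, calls by genotype in the main fits, DESeq2, the block and the single fit were 116, 729, 238 and 297 in ileal Treg, 208, 556, 338 and 256 in ileal Tconv, 842, 1343, 1075 and 194 in mesenteric Treg, 350, 680, 416 and 121 in mesenteric Tconv, 838, 1503, 1524 and 86 in Treg and 410, 599, 576 and 123 in Tconv of the joint nodes, 28, 932, 0 and 3512 in synovial Treg, and 92, 1197, 2 and 2144 in synovial Tconv. The averaged difference gave 2365 calls, against 1162 in the single fit. Libraries number at most 3 a group, which limits the precision of every value.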
